A study of Mus musculus with 4 samples.

Results

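Parvalbumin inhibitory neurons of the mouse hippocampus are described here from single-nucleus RNA sequencing. A nucleus was chosen by a rule on its own counts of unique molecular identifiers (UMIs, each standing for 1 captured RNA molecule). The rule asked for at least 500 detected genes, at least 3 UMIs of Gad1 and Gad2 together, at most 1 UMI of Slc17a7, at most 1 of Sst and 0 of Vip. Pvalb also had to be detected together with at least 1 of Tac1, Btbd11, Mypn, Adamtsl5, Nxph2 and Lrrc38. Of 60288 barcodes, 572 met the rule: 117 in the wild-type library, 199 in the library labelled total knockout, 137 in the library labelled astrocyte knockout and 119 in the library labelled neuron knockout.

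The study compared the hippocampus of wild-type mice with that of 3 kinds of mice lacking MAGL, the enzyme monoacylglycerol lipase encoded by Mgll. The loss was global in the first kind, restricted to astrocytes in the second and restricted to neurons in the third. Each genotype was 1 library. The labels do not state the number, age or pooling of the animals, the Cre lines or the deleted part of Mgll, so a difference between libraries cannot be told apart from a difference between animals, preparations or captures. No test across samples was possible with 1 library per genotype, and every interval below is a 95% interval that covers counting error only.

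MAGL breaks down 2-arachidonoylglycerol, an endocannabinoid that neurons make on demand and that acts mainly on the presynaptic receptor CB1, encoded by Cnr1. Parvalbumin neurons are the fast-spiking GABA-releasing cells of the hippocampus. Their basket cells contact the cell bodies of pyramidal neurons and their axo-axonic cells contact the start of the axon, and both time the firing of those neurons. In the hippocampus CB1 is known to be abundant on the terminals of another basket cell type, which makes cholecystokinin, and scarce on those of parvalbumin cells.

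The 4 libraries held 8945 to 31243 barcodes, and the library labelled total knockout was the largest. Median depth per parvalbumin nucleus was 12271 UMIs in the wild-type library, 8428 in the library labelled total knockout, 9916 in that labelled astrocyte knockout and 11258 in that labelled neuron knockout. Members together gave 1413590 to 1822513 UMIs per library, and levels below are counts per 1000000 of these UMIs (CPM). Between 108 and 466 barcode sequences were shared by any pair of libraries, and no sequence was a member in both libraries of a pair. The library labelled total knockout stood apart in sex-linked UMIs, doublet calls and markers of other brain regions. It held 0 members with Xist and without Y-linked UMIs (193 had the male pattern), whereas the wild-type library held 60 such members beside 53 of the male pattern, the library labelled astrocyte knockout 50 beside 69, and the library labelled neuron knockout 58 beside 57. Scrublet, which scores barcodes that look like 2 nuclei captured together, marked 54 of its 199 members (27.1%), against 1, 7 and 0 members of the wild-type, astrocyte knockout and neuron knockout libraries. Its share over all barcodes was 23.5%, near that of its members, against 3.77%, 6.08% and 2.14% in the same order. The expected rate given to Scrublet rose with the number of barcodes and was 25.0% for this library. A list of 10 outside-hippocampus markers stood for other brain regions, but Rarb, 1 of the 10, was common in members. It had a UMI in 51.0% to 63.9% of nuclei in each of the sub-groups 1 to 7 described below. At least 2 of the 10 markers were found in 22 members of the library labelled total knockout, against 2, 4 and 2 in the same order. Without Rarb these counts were 11, against 0, 0 and 1.

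Mgll did not mark the labels in these nuclei. Wild-type members held 95.6 CPM (80.6 to 112.5), those of the library labelled total knockout 105.9 CPM (91.5 to 121.9), those of the library labelled astrocyte knockout 118.8 CPM (101.6 to 138.2) and those of the library labelled neuron knockout 122.4 CPM (104.9 to 142.0). In members no library labelled knockout was lower than the wild-type library, and the log2 ratios to it were 0.15 (-0.17 to 0.47), 0.31 (-0.02 to 0.65) and 0.36 (0.03 to 0.69). In other classes of the wild-type library and those labelled total, astrocyte and neuron knockout, in that order, Mgll was at 101.3, 79.0, 107.5 and 105.0 CPM in excitatory nuclei and at 154.1, 125.6, 163.9 and 135.7 CPM in other inhibitory nuclei, so the library labelled total knockout was the lowest in both. Among male-pattern nuclei its log2 ratios were -0.42 (-0.50 to -0.33) in excitatory and -0.35 (-0.51 to -0.18) in other inhibitory nuclei. The outside-hippocampus markers, Rarb included, summed to 315 CPM in its other inhibitory nuclei. They summed to 105.4, 116.6 and 111.2 CPM in those of the wild-type, astrocyte knockout and neuron knockout libraries, and their part was not tested. Mgll lies at chr6:88724412-88828360 on the plus strand (GRCm38, GENCODE M21). UMIs from outside a deleted part do not check an allele, and where in the gene these UMIs lie is not in a count table. Libraries are therefore named by their labels throughout.

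Pvalb, the calcium-binding protein the cells are named for, is at chr15:78191114-78206400 on the minus strand. It was shallow even in the nuclei chosen on it: 330 of the 572 members had exactly 1 Pvalb UMI, 242 had more, and the highest count was 10. The same UMI was found in 1.47%, 0.944%, 0.985% and 0.958% of excitatory nuclei (wild type, then the libraries labelled total, astrocyte and neuron knockout), whose median depths were 12039.5, 8846, 10037 and 11203 UMIs. At those shares 11.9 to 31.7 inhibitory nuclei per library would carry a Pvalb UMI, before the second marker is asked for. Just inside the rule were 91 members with exactly 2 of the 7 markers. Just outside it were 26 nuclei with Pvalb as the only marker, 72 with 2 UMIs of Gad1 and Gad2, 128 with 2 or more Sst UMIs, 10 with Vip and 93 with at least 4 of the other markers and no Pvalb UMI.

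Members made up 1.26% of wild-type nuclei (1.04 to 1.51, exact Clopper-Pearson), 0.643% (0.557 to 0.739) in the library labelled total knockout, 1.28% (1.08 to 1.52) in that labelled astrocyte knockout and 1.34% (1.11 to 1.61) in that labelled neuron knockout. Among inhibitory nuclei the shares were 11.9%, 5.92%, 11.3% and 9.15% in the same order. The library labelled total knockout was thus the lowest by both denominators, and the other libraries overlapped in their intervals. With every nucleus thinned to 3000 UMIs, 12, 39, 26 and 16 members remained, or 0.144% (0.0746 to 0.252), 0.158% (0.112 to 0.215), 0.257% (0.168 to 0.376) and 0.198% (0.113 to 0.321), and these 4 intervals overlap. Among the inhibitory nuclei left after thinning, members were 3.19% (1.66 to 5.51), 2.81% (2.01 to 3.83), 4.91% (3.23 to 7.11) and 2.96% (1.70 to 4.77). The library labelled total knockout was no longer the lowest among all nuclei but still was among inhibitory nuclei, where the intervals also overlap. Thinning left out 986, 6180, 544 and 753 shallower nuclei. Male-pattern composition, doublet calls, outside-hippocampus markers and depth all moved with the lower unthinned share, and their part in it was not tested.

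Levels in members were read against the 4443 other inhibitory nuclei (Sst at most 1 UMI) of the same libraries. All of these nuclei were sorted by their own counts, so the differences are descriptions. Of 5054 genes with at least 200 UMIs over the members, 137 (2.71%) were at least 2-fold higher in members in all 4 libraries and 101 (2.00%) at least 2-fold lower. Against 1817 Sst nuclei, 114 genes (2.26%) were higher and 77 (1.52%) lower by the same measure. Rule markers were kept in these counts: 5 were among the 137 and 4 among the 114.

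The release machinery carried the clearest example. Syt2 encodes synaptotagmin-2, the fast calcium sensor for transmitter release at these terminals. It was at 182.5, 152.5, 205.9 and 139.9 CPM in members and at 8.90, 18.7, 18.1 and 14.6 CPM in other inhibitory nuclei (wild type, then the libraries labelled total, astrocyte and neuron knockout). Levels in members were above every level in the other nuclei, with log2 differences of 4.36, 3.03, 3.51 and 3.26. Of 11 measured genes of GABA synthesis and release, Syt2 and Cplx1, the complexin that clamps and speeds vesicle fusion, passed 2-fold in all 4 libraries. Against Sst nuclei 1 of the 11 passed, and it was Syt2 (3.13 to 4.76). Slc32a1, the vesicular GABA transporter, was at 71.9 to 101.3 CPM in members and 60.1 to 86.3 CPM elsewhere, and Syt1, the sensor of most other synapses, was lower in members by a little in every library (log2 differences of -0.17 to -0.21). Syt2 lies at chr1:134646677-134762593 on the plus strand, and the 250 bases before its RefSeq start are shown because the 7 letters AAGGTCA, the core of a binding element of orphan nuclear receptors, falls in them and 1 receptor of this kind, Esrrg, was among the genes higher in members. The run is chr1:134646362-134646611 (GRCm38.p6, plus strand), and the capitals mark the reverse complement of that motif, starting 167 bases before the start site.
Syt2 upstream: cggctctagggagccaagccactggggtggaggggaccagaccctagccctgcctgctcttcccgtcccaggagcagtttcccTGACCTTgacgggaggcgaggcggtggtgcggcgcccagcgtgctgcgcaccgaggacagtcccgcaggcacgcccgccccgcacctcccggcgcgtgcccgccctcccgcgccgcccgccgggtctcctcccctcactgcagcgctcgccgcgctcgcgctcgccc
On either strand the motif was in 5 of the 105 available promoters of the genes higher in members (4.76%), in 2 of the 73 of the lower genes (2.74%), in 112 of 3963 promoters of all tested genes (2.83%) and in 1259 of 27025 promoters of the whole RefSeq table (4.66%). Of the 5 promoters of the higher genes, that of Adamtsl5 belongs to a rule marker. The share among the higher genes was close to that of the whole table, and a match is a description of the letters.

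Transcription factors separated members from other inhibitory nuclei more than from Sst nuclei. Of 8 measured factors of the list, 5 were at least 2-fold higher in all 4 libraries. Sox6 and Satb1, which act in the development of interneurons from the medial ganglionic eminence, were at 595.6 to 701.1 and 319.3 to 442.7 CPM in members against 95.5 to 167.5 and 80.7 to 104.4 CPM in other inhibitory nuclei. Ppargc1a, the coactivator PGC-1alpha that drives mitochondrial genes, differed by 1.44 to 1.81 on the log2 scale, and Esrrg, an orphan nuclear receptor that pairs with it, by 1.46 to 1.70. Mef2c, an activity-regulated factor, was the fifth, at 1.03 to 1.41. Lhx6, which specifies the whole medial lineage, was 0.31 to 1.17 higher and did not pass in every library, while Maf was at nearly the same level in both (-0.11 to 0.16). The median log2 difference of the 8 factors was 1.42, beside 0.08 for all 5054 genes. Against Sst nuclei 2 of the 8 were at least 2-fold higher in all 4 libraries. Their median there was 0.04 over the 8, beside 0.05 for all 5054 genes.

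Fast-spiking ion channels followed. Kcnc1, the Kv3.1 channel that repolarises the membrane quickly, was at 625.2, 486.1, 621.8 and 571.0 CPM in members against 233.8, 183.7, 233.4 and 241.2 CPM elsewhere. No library overlapped, and the log2 difference was 1.24 to 1.42. Of 12 measured channel genes, 5 were at least 2-fold higher in all 4 libraries, among them Kcnc1, Kcnc2, which encodes a related potassium channel, and the axonal potassium channel Kcna2. Kcna1 missed in the library labelled astrocyte knockout (0.94), and the sodium channels Scn1a and Scn8a were 0.33 to 0.81 higher. The median of the 12 was 1.01. Against Sst nuclei 3 of the 12 were at least 2-fold higher in all 4 libraries, and the median was 0.65.

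Surface and matrix genes gave a mixed picture. Acan, the aggrecan core of perineuronal nets, had 23.9, 17.0, 19.1 and 18.3 CPM in members and 1.27 to 2.57 CPM in other inhibitory nuclei, but with under 200 UMIs it entered no count. Bcan, the related brevican, was 1.97 to 2.48 higher on the log2 scale, whereas Ptprz1, a receptor phosphatase of glia and precursors, was lower in all 4 libraries (-1.06 to -2.70). Against Sst nuclei 1 of the 3 measured net genes was at least 2-fold higher in all 4 libraries and 0 were 2-fold lower. Among receptors, Oprd1, the delta opioid receptor, was 1.72 to 2.10 higher. It was 1 of 5 measured neuromodulator and peptide receptors, of which 0 passed 2-fold in all 4 libraries against Sst nuclei. Gria3, an AMPA receptor subunit, was 0.90 to 1.63 higher, and Grin2a, an NMDA receptor subunit, was lower (-1.09 to -1.45). Gabra2, the alpha-2 subunit of the GABA-A receptor, was lower by more than 2-fold in all 4 libraries (-1.50 to -2.73), and Gabrd, the delta subunit of extrasynaptic receptors, was 0.96 to 2.02 higher. The plot of list genes against other inhibitory nuclei shows the measured net genes beside other lists, without the receptor lists.

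**Figure D1:**
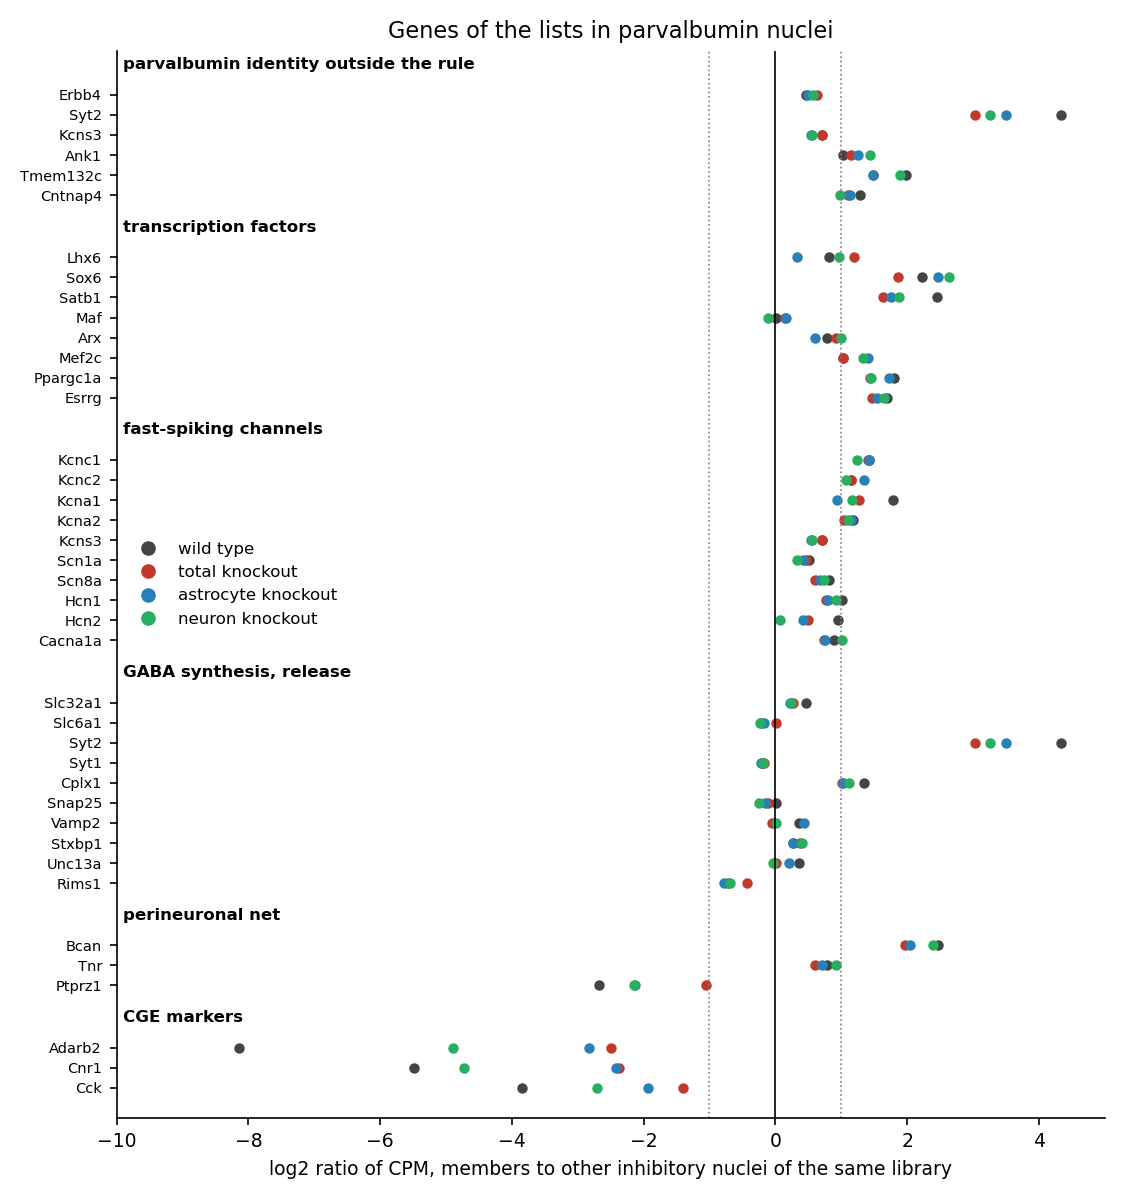
Log2 difference of measured list genes (1 UMI added to both sums) between parvalbumin nuclei and other inhibitory nuclei of the same library, horizontal axis, with 1 point per gene and library and lists on the vertical axis. Drawn are the identity, transcription factor, channel, release, perineuronal net and CGE lists. Receptor lists, 2 of the 12 channel genes and 1 of the 11 release genes are not drawn. Transcription factors and channel genes lie mostly to the right of 0, and the 3 measured CGE genes (Adarb2, Cnr1 and Cck) lie to the left, with Adarb2 from -8.14 to -2.49.

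Genes of interneurons from the caudal ganglionic eminence (CGE), the other large source of inhibitory cells, were among the lower genes. Adarb2, their defining RNA-binding gene, was at 29.2, 1083, 1002 and 301.7 CPM in members and at 6082 to 8982 CPM in other inhibitory nuclei. Members of the wild-type library were the lowest by far, so the log2 difference ran from -8.18 there to -2.49 in the library labelled total knockout. Cnr1 followed the same order with differences of -5.56, -2.39, -2.43 and -4.77. The 3 measured CGE markers were all at least 2-fold lower than in other inhibitory nuclei in all 4 libraries. Against Sst nuclei 0 of the 3 were, and their median log2 difference was 0.05. Summed over the 9 CGE markers, members held 78.3, 1322, 1201 and 412.1 CPM, with Vip at 0 by the rule. These UMIs were not spread over the members, as the next division shows.

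Clustering of the members gave 8 sub-groups (Leiden, resolution 1, sex-linked genes, mitochondrial genes and Mgll left out). Each drew nuclei from all 4 libraries. The genes that lead a sub-group follow from the clustering and are given as description. Sub-group 1 (133 nuclei) was led by Eya1, Rbp4 and Kcnip4, sub-group 3 (100) by Cntn5 and Eya4, sub-group 4 (69) by Gpc6 and Pde11a, sub-group 5 (60) by Olfm3 and Cdh7, sub-group 6 (39) by Npy, Sema6d and Pde3a, and sub-group 7 (36) by Ano3, Crhbp and Trpc6. Pvalb itself lay between 118.8 and 204.7 CPM in all 8. Sub-groups 2, 6 and 8 kept exactly their members at a resolution of 0.5, which gave 6 groups.

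Sub-group 8 (31 nuclei; 4, 7, 9 and 11 by library) was axo-axonic-like. Unc5b, a netrin receptor that marks axo-axonic cells, had a UMI in 96.8% of its nuclei and in at most 27.5% of any other sub-group. C1ql1 was found in 41.9%, Pthlh in 35.5% and Vipr2 in 32.3%, against at most 10.1%, 18.3% and 0.752% elsewhere. Syt2, abundant in basket cell terminals, had a UMI in 6.45% of its nuclei and in 47.1% to 84.1% of the others. Satb1 was at 35.5% in this sub-group and 28.2% in sub-group 6, against 65.4% or more in the other 6.

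The remaining sub-groups differed in peptides, receptors and Mgll. Tac1, the precursor of substance P, had a UMI in 60.9% of sub-group 1, 82.1% of sub-group 6 and 58.3% of sub-group 7, but in 2.90% of sub-group 4 and 3.23% of sub-group 8. Chrm2, the M2 muscarinic receptor, was found in 93.5% of sub-group 8, 87.0% of sub-group 4 and 85.7% of sub-group 1, and in 3.33% of sub-group 5 and 10.3% of sub-group 6. Oprm1, the mu opioid receptor, reached 58.0% in sub-group 4 and was at 2% in sub-group 3. Mgll ran from 55.9 CPM in sub-group 1, 58.9 in sub-group 5 and 61.4 in sub-group 3 to 160.8 in sub-group 4, 206.5 in sub-group 6 and 213.6 in sub-group 8, over the 4 libraries together. Sub-group 8 was at 284.0, 207.0 and 238.1 CPM in the libraries labelled total, astrocyte and neuron knockout and at 77.7 CPM in the 4 wild-type nuclei, which held 4 Mgll UMIs and were below those of sub-groups 2, 4, 6 and 7. Sub-group 6 went the other way, at 183.9, 195.6 and 175.4 CPM against 272.8 CPM in 8 wild-type nuclei with 36 Mgll UMIs. In each remaining sub-group the libraries labelled knockout lay on both sides of wild type. Acan was highest in sub-group 5 (49.1 CPM) and lowest in sub-group 8 (2.77 CPM).

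**Figure D2:**
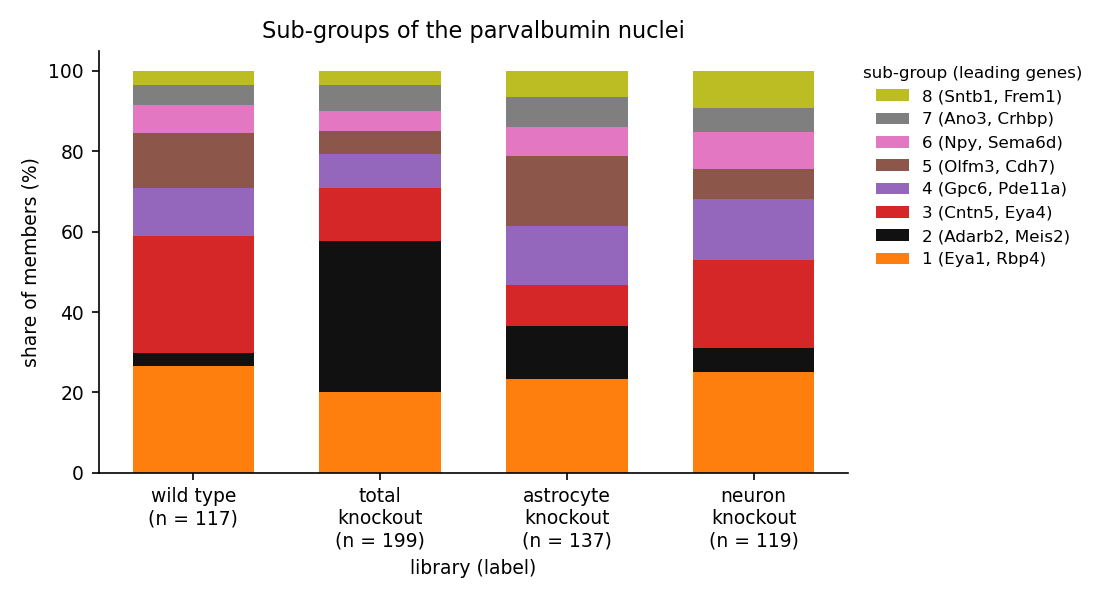
Share of parvalbumin nuclei in each of the 8 sub-groups, vertical axis in percent of the members of a library, with 1 stacked bar per library. Sub-group 2 holds 75 of the 199 members of the library labelled total knockout and 4 of the 117 of the wild-type library.

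Sub-group 2 stays without a name. It held 4, 75, 18 and 7 nuclei, or 3.42%, 37.7%, 13.1% and 5.88% of the members, and its leading genes were Adarb2, Meis2 and Trpm3, with the oligodendrocyte factor St18 also among the first 10. All 62 members that Scrublet marked as doublets were in it, 51 of its 104 nuclei had at least 2 Adarb2 UMIs and 19 had at least 2 oligodendrocyte markers. Over all members the 6 oligodendrocyte markers summed to 3.32, 466.4, 24.0 and 9.84 CPM, with Mobp, Mag and St18 among those at 0 in the wild-type library. Without sub-group 2 the members were 113, 124, 119 and 112, or 1.22%, 0.401% (0.334 to 0.478), 1.12% and 1.27% of nuclei. Leaving it out did not bring the library labelled total knockout closer to the others. Values without sub-group 2 are given below for a part of the genes. Sub-group 2 also held 49.0% of the Npy, 45.6% of the Mgll and 41.6% of the Ano1 UMIs of the library labelled total knockout. Levels without it are drawn but not printed for Npy and Mgll, and are not given for Ano1.

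Against the wild-type library, 228 genes (4.51% of 5054) were at least 1.5-fold higher and 192 (3.80%) at least 1.5-fold lower in members of the library labelled total knockout. The library labelled astrocyte knockout had 130 higher (2.57%) and 178 lower (3.52%), and the library labelled neuron knockout 119 higher (2.35%) and 205 lower (4.06%). Scaling by the median ratio in place of total UMIs gave 260 and 150, 171 and 122, and 147 and 161. Without sub-group 2 the counts were 76 and 126, 69 and 134, and 73 and 146. The 3 comparisons share the wild-type library.

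Few genes of fast-spiking physiology and identity were past 1.5-fold of wild type, and few of all 5054 genes were, by the shares just given, so these counts are near the background and do not set the lists apart. Of the 12 measured channel genes, 0 were past 1.5-fold in any library labelled knockout, and their median log2 ratios were -0.29, 0.02 and -0.10, beside -0.02, -0.03 and -0.01 for all 5054 genes. Kcnc1 was at 625.2 CPM in the wild-type library and 486.1, 621.8 and 571.0 in the libraries labelled total, astrocyte and neuron knockout, and Scn1a, the Nav1.1 channel, at 751.3, 740.7, 776.0 and 737.7. The 8 measured transcription factors also gave 0 past 1.5-fold in each comparison, as did 5 of the 6 identity genes outside the rule. The exception was Tmem132c, a transmembrane protein gene, at 165.3 CPM in the wild-type library and 101.5, 126.6 and 113.2 CPM in the others. It was past 1.5-fold in the library labelled total knockout, at -0.70 (-0.99 to -0.42), and lower in all 3. Among male-pattern members alone the ratio was -0.46 (-0.83 to -0.09) and under 1.5-fold, 2 channel genes, 1 of them the modifier subunit Kcns3, passed downward in that library, and Hcn2, a pacemaker channel, did so in that labelled neuron knockout. Without sub-group 2 Tmem132c passed as before, Lhx6 passed upward in the library labelled total knockout and Hcn2 downward in that labelled neuron knockout.

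Tac1 is 1 of the markers that chose the members, so its level in them is shaped by the rule and is a description. It was at 121.5 CPM in wild type, 74.6 and 79.2 in the libraries labelled total and astrocyte knockout, and 113.2 in that labelled neuron knockout. The first pair lay below the other pair, with log2 ratios of -0.70 and -0.62. Among male-pattern members the ratios were -0.79 and -0.37. Without sub-group 2, where Tac1 was found in 27.9% of nuclei, the ratios were -0.50 and -0.41 and neither passed 1.5-fold.

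Synaptic genes differed at single members. Of 11 genes of GABA synthesis and release, only Vamp2, the vesicle SNARE, passed 1.5-fold, in the library labelled total knockout (61.7 CPM in wild type, then 37.9, 49.5 and 41.5; log2 ratio -0.71). Among male-pattern members alone Vamp2 was at 37.7, 38.9, 57.8 and 39.6 CPM, and the log2 ratios were 0.046 (-0.62 to 0.76), 0.62 (-0.13 to 1.38) and 0.07 (-0.75 to 0.90). None of these 3 was below wild type, and that of the library labelled astrocyte knockout was past 1.5-fold higher. Female-pattern members held 87.0 CPM in wild type and 33.7 and 47.0 CPM in the libraries labelled astrocyte and neuron knockout. Oprm1 passed in the library labelled neuron knockout (31.2 CPM in wild type, then 40.1, 38.2 and 54.1), at 0.80 (0.25 to 1.35).

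Gabra2 stood out among 9 GABA-A receptor subunits. It was at 43.1 CPM (33.3 to 55.0) in wild type, 159.1 (141.3 to 178.5) in the library labelled total knockout, 87.7 (73.0 to 104.6) in that labelled astrocyte knockout and 84.4 (70.0 to 100.9) in that labelled neuron knockout. All 3 lay above wild type without overlap of their intervals, at log2 ratios of 1.88, 1.02 and 0.97. Sub-group 2 held 76.2% of the Gabra2 UMIs of the library labelled total knockout and 52.4% of those of the library labelled astrocyte knockout. Without it the levels were 38.0, 69.4, 49.1 and 74.0 CPM and the ratios 0.87 (0.34 to 1.41), 0.37 (-0.18 to 0.93) and 0.96 (0.47 to 1.47). The libraries labelled total and neuron knockout were thus still past 1.5-fold, and that labelled astrocyte knockout was not. Excitatory nuclei were also higher, at 756.6, 776.6 and 708.5 CPM against 518.0 CPM in wild type. The other 8 subunits stayed within 1.5-fold in all 3 comparisons, though among male-pattern members Gabrb1 passed upward in the library labelled total knockout and Gabra3 in that labelled astrocyte knockout.

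Of 3 measured perineuronal net genes, Ptprz1 passed 1.5-fold in the library labelled total knockout, where members held 126.2 CPM against 50.4 CPM in wild type and 54.5 and 64.0 CPM in the libraries labelled astrocyte and neuron knockout. Outside sub-group 2 it was at 61.3 CPM there and 48.3 CPM in wild type, a log2 ratio of 0.34 (-0.18 to 0.86). Among male-pattern members Ptprz1 passed upward in the library labelled neuron knockout as well. Bcan, at 73.0, 76.3, 86.3 and 106.9 CPM, and Tnr, the matrix protein tenascin-R, at 498 to 635 CPM, were within 1.5-fold. Without sub-group 2 Bcan was at 73.8 CPM in wild type and 112.1 CPM in the library labelled neuron knockout, past 1.5-fold at 0.60 (0.23 to 0.98). Further calls that appeared without sub-group 2 included the adrenergic receptor gene Adra1a downward in the library labelled total knockout, Chrm2 upward in that labelled astrocyte knockout, and the serotonin receptor gene Htr2a downward in that labelled neuron knockout.

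**Figure D3:**
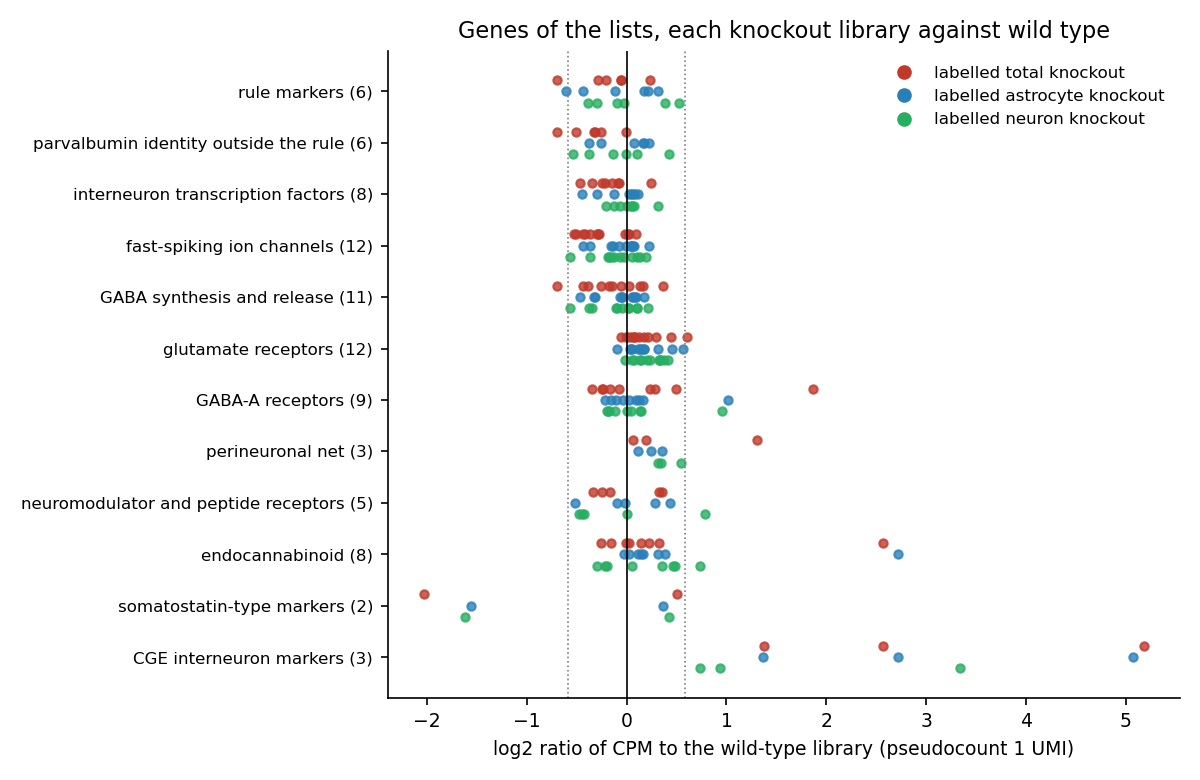
Log2 ratio of each list gene (1 UMI added to both sums) to the wild-type library in parvalbumin nuclei, horizontal axis, for the libraries labelled total, astrocyte and neuron knockout, with lists on the vertical axis. Channel and transcription factor genes lie within 1.5-fold of wild type, and the points far to the right are CGE genes such as Adarb2 and Cnr1.

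The endocannabinoid genes gave 1 of 8 past 1.5-fold in each comparison, and it was Cnr1. Members held 13.3, 82.3, 91.3 and 22.5 CPM, so all 3 libraries labelled knockout were above wild type. Sub-group 2 carried 96.7%, 91.5% and 65.6% of those UMIs in the libraries labelled total, astrocyte and neuron knockout. Outside it Cnr1 was at 8.97, 5.03, 9.16 and 8.39 CPM, in 10, 3, 5 and 8 nuclei, and other inhibitory nuclei held 430.2 to 627.0 CPM. Dagla, which synthesises 2-arachidonoylglycerol, was at 43.1, 50.5, 56.6 and 60.5 CPM. Abhd6 and Abhd12, the other hydrolases of this lipid, were at 127.4, 114.7, 138 and 132.2 CPM and at 111.5, 113.6, 124.5 and 95.6 CPM. Plcb1, the phospholipase of the Gq route, was at 1131 to 1389 CPM, and Cnrip1, a CB1-binding protein, at 88.9 to 107.5 CPM. None of these 5 genes passed 1.5-fold, though among male-pattern members Dagla and another phospholipase gene, Plcb4, passed upward in the library labelled neuron knockout.

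The 3 measured CGE markers, Adarb2, Cnr1 and Cck, were all past 1.5-fold higher in each library labelled knockout. Without sub-group 2 Cck in the library labelled astrocyte knockout was at a log2 ratio of -1.31 and Adarb2 in that labelled total knockout at 0.99. Immediate early genes were near the detection limit: Homer1, a synaptic scaffold gene induced by activity, was the only 1 of 10 with 200 UMIs, at 191.8, 185.5, 145.0 and 133.6 CPM, within 1.5-fold of wild type.

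Npy, the gene of neuropeptide Y, was among the 5 lowest genes in each of the 3 comparisons. It was at 116.2 CPM (99.6 to 134.7) in wild type, 28.0 (20.8 to 36.8) in the library labelled total knockout, 38.9 (29.3 to 50.6) in that labelled astrocyte knockout and 37.3 (27.9 to 48.8) in that labelled neuron knockout. The wild-type library stood above the other 3, which overlapped, at log2 ratios of -2.05, -1.58 and -1.64. The libraries were closer in the share of nuclei with a UMI: 15.4%, 14.1%, 13.1% and 11.8%. The counts sat in few nuclei, 18, 28, 18 and 14 by library, and 1 wild-type nucleus alone held 30 of the 175 UMIs. In sub-group 6, which Npy leads, the level was 826 CPM in 8 wild-type nuclei and 153, 347 and 240 CPM in 10, 10 and 11 nuclei of the others. In other inhibitory nuclei Npy was lower as well, by -1.46, -0.58 and -0.82 on the log2 scale. Npy lies at chr6:49822710-49829507 on the plus strand.

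Spock1, the gene of the proteoglycan testican-1, was the lowest eligible gene of the library labelled neuron knockout. Spock1 lies at chr13:57421195-57908332 on the minus strand. Its level was 387.6 CPM in wild type, 394.5 and 394.7 CPM in the libraries labelled total and astrocyte knockout, and 107.6 CPM in that labelled neuron knockout. A single library was low, at a log2 ratio of -1.85 (-2.12 to -1.59), while the other ratios were both 0.03. Other inhibitory nuclei (-1.94) and excitatory nuclei (-1.98) of that library were lower by a like amount.

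The low Spock1 level followed the sex-linked UMIs of the nuclei. In the library labelled neuron knockout, members with Y-linked UMIs and no Xist held 195.2 CPM (164.0 to 230.6; 138 UMIs in 57 nuclei), and members with Xist and no Y-linked UMIs held 18.8 CPM (9.72 to 32.9; 12 UMIs in 58 nuclei). In the wild-type library the male-pattern and female-pattern members were at 390.1 and 393.2 CPM, and in the library labelled astrocyte knockout at 404.3 and 457.3 CPM. The male-pattern members of the library labelled neuron knockout were below those of wild type, at a log2 ratio of -0.999 (-1.31 to -0.70), and the female-pattern members at -4.39 (-5.36 to -3.56). Other inhibitory nuclei of that library showed 182.9 and 9.61 CPM for the male and female patterns, and excitatory nuclei 152.4 and 18 CPM. The split was made after the low value had been seen. Sex and the individual animals cannot be told apart in it, and no cause was tested.

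**Figure D4:**
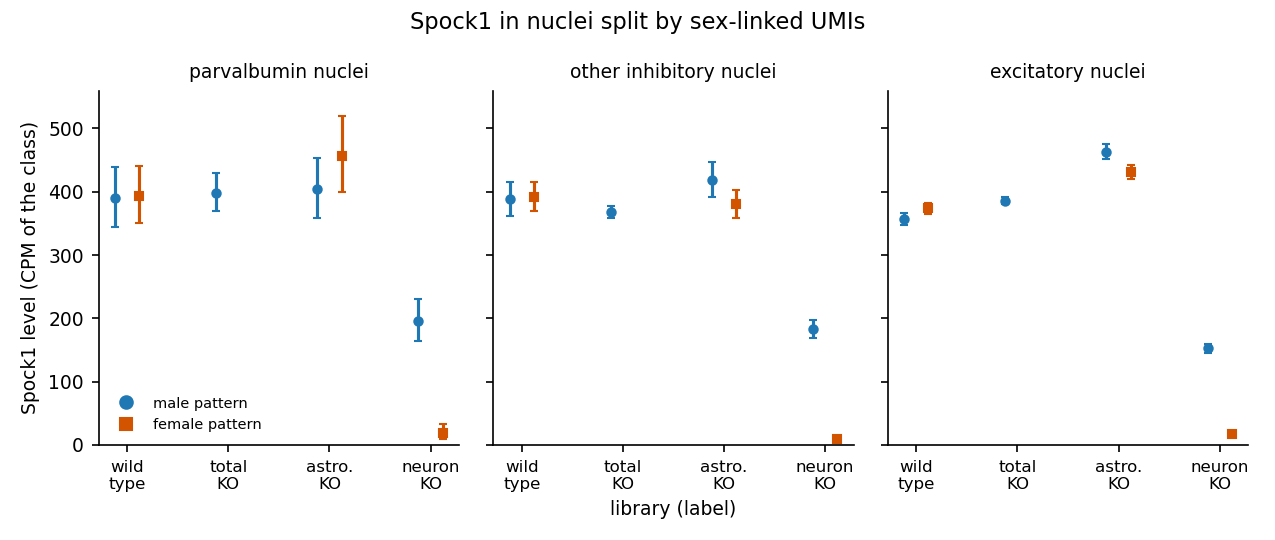
Spock1 level, vertical axis in CPM of the nuclei class, by library for nuclei of the male pattern (circles) and the female pattern (squares), with bars for exact Poisson 95% intervals. In the library labelled neuron knockout the female-pattern parvalbumin nuclei are at 18.8 CPM and the male-pattern ones at 195.2 CPM, while wild-type nuclei of both patterns are near 390.1 and 393.2 CPM.

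Among the named genes with the highest ratios, Fstl5, Rph3a, Cntnap5b and Frem1 were named because their level in members, over the compared pair of libraries, was at least that of all other nuclei. In wild type alone each was below the other nuclei, so each met the naming rule through a library labelled knockout, where it had to be high, and the values are a description. Fstl5, a follistatin-like gene, was at 89.6, 172, 196 and 281 CPM, with log2 ratios of 0.94, 1.13 and 1.65 against -0.51, -0.22 and 0.04 in other inhibitory nuclei. Rph3a, the vesicle protein rabphilin-3A, was at 67.7, 120.7, 130.9 and 180.7 CPM, with ratios of 0.83, 0.95 and 1.42 against -0.16, -0.01 and 0.17. Without sub-group 2 the Fstl5 ratios were 0.53, 0.88 and 1.40 and the Rph3a ratios 0.90, 0.93 and 1.40. Cntnap5b, a contactin-associated protein gene, was at 282, 402, 510.1 and 653 CPM. Its ratio in the library labelled total knockout was 0.51, under 1.5-fold, and was past 1.5-fold without sub-group 2. Frem1, an extracellular matrix gene, was at 15.3, 42.8, 66.5 and 30.9 CPM, in 4, 12, 10 and 11 nuclei, and 14 of its 23 wild-type UMIs were in 1 nucleus. Without sub-group 2 Frem1 was at 15.9, 17.1, 44.9 and 33.6 CPM, and its ratio in the library labelled total knockout was 0.11 (-0.89 to 1.07). Sub-group 8, of 4 nuclei in wild type and 11 in the library labelled neuron knockout, carried 23.3% and 58.8% of their Cntnap5b UMIs and 21.5% and 40.0% of their Fstl5 UMIs. Its share of the Frem1 UMIs was 95.7% and 84.1% there, and sub-group 2 held 78.2% of those of the library labelled total knockout. Sub-group composition therefore moved with Fstl5, Cntnap5b and Frem1, and its part was not tested. Rph3a was higher in the library labelled neuron knockout than in wild type within every sub-group. In sub-group 1 it was at 91.9 against 33.5 CPM, and in sub-group 3 at 83.9 against 43.3 CPM. In the library labelled astrocyte knockout sub-group 3 was lower than wild type, at 29.2 CPM.

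Ano1, the calcium-activated chloride channel, was at 21.2, 55.4, 34.0 and 50.6 CPM, and it was higher in other inhibitory nuclei too (1.40, 2.04 and 2.25). Pde3a, a phosphodiesterase gene, was at 31.2, 49.9, 89.8 and 75.9 CPM, and 66.0% of its wild-type UMIs lay in sub-group 6. Without sub-group 2 its ratio in the library labelled total knockout was 0.29, under 1.5-fold, from 0.68. Col25a1, a membrane collagen gene, was at 305, 487, 608 and 506 CPM, and without sub-group 2 at 298.8, 481.6, 509.4 and 415.7 CPM, where the library labelled neuron knockout was no longer past 1.5-fold (0.48, from 0.73). Cdh4, a cadherin gene, was at 31.2, 67.5, 75.7 and 56.3 CPM, and its 3 ratios stayed past 1.5-fold without sub-group 2 (0.81, 1.24 and 0.89).

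Other genes with the lowest ratios were spread over several functions. Atp5o, an ATP synthase subunit, was at 69.7, 29.6, 29.7 and 30.9 CPM, Chchd10, a protein of the mitochondrial intermembrane space, at 70.4, 34.0, 34.0 and 24.6 CPM, and Cox7a2, a cytochrome oxidase subunit, at 55.1, 37.3, 36.8 and 21.1 CPM. Wild type was the highest library for each, and each was also lower than wild type in other inhibitory nuclei (-0.50 to -1.02) and in excitatory nuclei (-0.43 to -0.79). Scn2b, a sodium channel beta subunit, was at 57.7, 35.1, 22.6 and 33.1 CPM, and in other inhibitory nuclei its ratios were -0.08, -0.32 and 0.07. In the library labelled total knockout 4 of the 5 lowest of the 3188 eligible genes were noncoding: 4933413L06Rik (59.1 CPM in wild type and 12.6 there), Srrm4os (59.1 and 17.6), Gm35188 (150.7 and 47.2) and Gm48091 (82.3 and 28.0). Srrm4os is antisense to Srrm4, and as the labels do not say whether counting used strand, UMIs of the pair cannot be told apart. These 4 genes were lower in the other inhibitory and excitatory nuclei of that library too. AY036118, a gene model that was lower in members of all 3 libraries labelled knockout (365.7, 270.0, 205.2 and 114.6 CPM), was also lower in their other inhibitory nuclei (-0.42, -0.89 and -1.34).

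**Figure D5:**
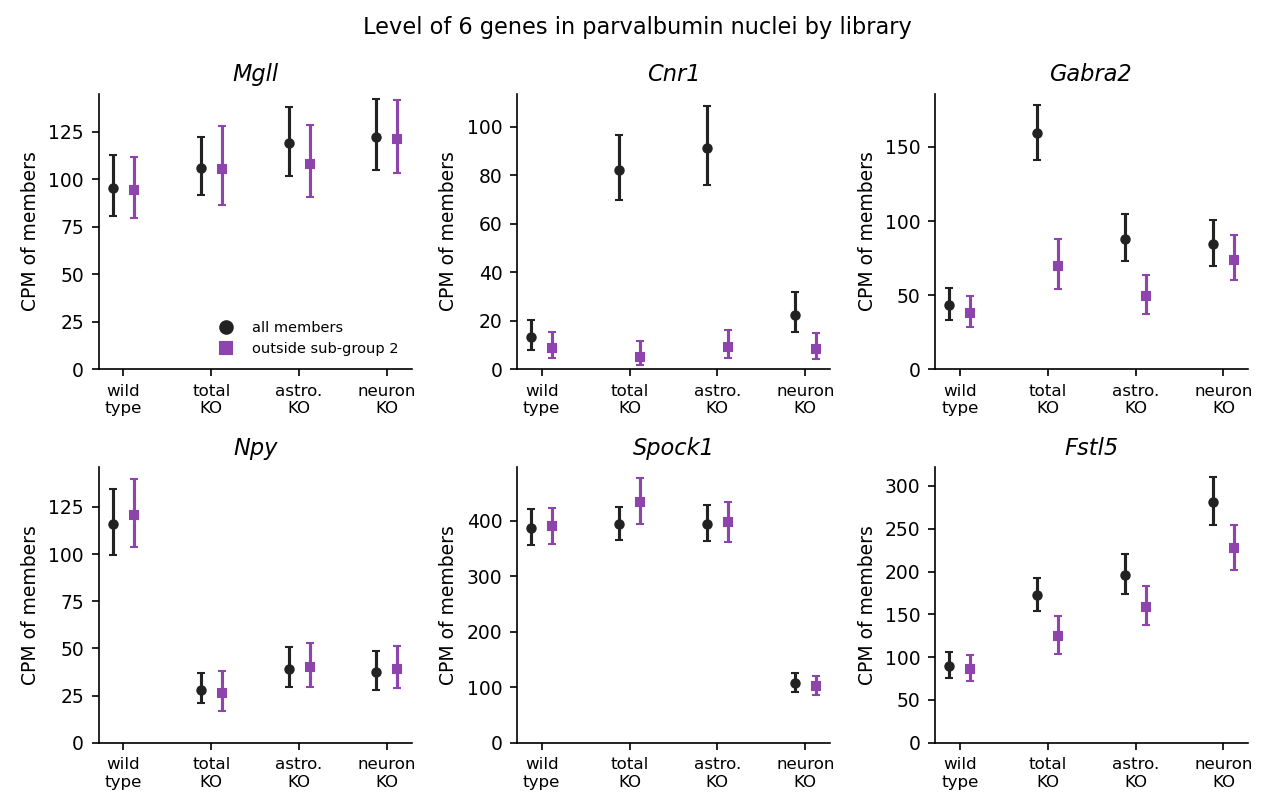
Level of Mgll, Cnr1, Gabra2, Npy, Spock1 and Fstl5 in parvalbumin nuclei, vertical axis in CPM, by library, for all members (circles) and those outside sub-group 2 (squares), with bars for exact Poisson 95% intervals. Npy is highest in the wild-type library at 116.2 CPM, Spock1 is low in the library labelled neuron knockout at 107.6 CPM, and Mgll lies between 95.6 and 122.4 CPM.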

How the data were processed

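Single nuclei of hippocampus from 4 genotypes, 1 library each, were counted by the authors with Cell Ranger ARC 2.0.0 on the build mm10, per the submitters' processing notes. The deposited values are raw UMI counts per gene and barcode; which filters made the barcode list, and whether strand was used, is not stated. The paired chromatin measurement of this kit was not analysed here. Symbols present in all 4 tables (20211 of 22989; they hold 99.98% or more of each library's UMIs) were used.

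UMIs were summed over members per library and divided by the members' total (CPM). A gene needed 200 UMIs over the members. A gene was counted as different at 1.5-fold from wild type, or at 2-fold in all 4 libraries against another class, with 1 UMI added to both sums; printed ratios have nothing added, with conditional binomial intervals. Level intervals are exact Poisson and share intervals Clopper-Pearson, at 95%. The other classes were inhibitory nuclei with at most 1 Sst UMI that were not members, nuclei with at least 2 Sst UMIs, and excitatory nuclei (at least 3 Slc17a7 UMIs, 0 of Gad1 and Gad2). Doublets were scored with Scrublet (scanpy 1.11.5, expected rate scaled to the number of barcodes) and kept in the main values. Sub-groups came from Leiden clustering (leidenalg 0.10.2, igraph 0.11.9) of normalised counts. Male pattern means a Y-linked UMI and no Xist, female pattern the reverse. Python 3.11.15, numpy 2.4.6, pandas 2.3.3 and scipy 1.17.1 were used, and the code was tested on simulated data.

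Named genes are the list genes and the 5 highest and 5 lowest ratios per comparison among eligible genes. These had 200 UMIs and a level in members at least as high as in all other nuclei, without sex-linked and mitochondrial genes. Members, lists and tests were chosen with earlier results of these data known. Positions are from GENCODE M21 and promoter sequence from RefSeq. Some genes of the lists are counted but not reported by name here.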

Additional observations from a re-analysis of the deposited data

How the results depend on the processing

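No paired analysis was possible because each genotype was 1 library and the labels give no replicate numbers. Shares of members moved to 0.656%, 0.242%, 0.553% and 0.531% (wild type, then the libraries labelled total, astrocyte and neuron knockout) with at least 2 Pvalb UMIs and to 0.144%, 0.158%, 0.257% and 0.198% when thinned. In the library labelled total knockout the share was 0.453% without nuclei holding Adarb2, oligodendrocyte or outside-hippocampus markers and 0.401% without sub-group 2. Genes past 1.5-fold from wild type (420, 308 and 324 in the libraries labelled total, astrocyte and neuron knockout) became 870, 717 and 768 at a minimum of 100 UMIs, 117, 69 and 68 at 500, 114, 45 and 60 at 2-fold, 267, 144 and 150 with 2 Pvalb UMIs, and 130, 98 and 100 when thinned. Without sub-group 2 there were 202, 203 and 219, and with the marker-holding nuclei left out 264 in the library labelled total knockout. Genes lower than in other inhibitory nuclei became 157 without sub-group 2, from 101. With the marker-holding nuclei left out, the log2 ratio reversed for Cnr1 (-0.21 in the library labelled total knockout, -0.54 astrocyte, -0.40 neuron), Frem1 (-0.016, total), Ptprz1 (-0.10, total) and Cck (-0.89, astrocyte). It reversed without sub-group 2 for Cnr1 (-0.84 total, -0.10 neuron) and Cck (-1.31, astrocyte), with 2 Pvalb UMIs for Cnr1 (-1.10, neuron) and Cck (-1.06, astrocyte), and among male-pattern nuclei for Vamp2 (0.046 total, 0.62 astrocyte, 0.07 neuron). The cause was not tested. Leaving out sub-group 2 or the marker-holding nuclei, and thinning the gene counts, were chosen after seeing the data. Depth limits the lists: genes under 200 UMIs, most immediate early genes among them, entered no count, and levels of genes held by few nuclei, such as Npy, rest on those nuclei.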
